A study of Mus musculus with 6 samples.

Results

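Folding, quality control and stress signalling in the endoplasmic reticulum (ER) were followed through 39 genes, chosen by symbol, in messenger RNA profiles of an osteosarcoma line. The genes fall into 15 of protein folding, 11 of ER-associated degradation, 5 of the translocon and 8 of stress sensing and its regulation. All 39 were among the 17144 genes listed in the count tables, and 38 had enough counts to be tested. The labels give the cells of all 6 libraries as SaOS2, a long-established line from a human bone tumour, and the titles divide the libraries into 3 named C and 3 named D. The series title names a compound, DDTC(I), and concerns its effect on the messenger RNA of these cells. The letters C and D, a dose and an exposure time are explained by no label used here, so neither group is called treated and differences run from C to D. No genetic change is named for either group. Whether replicates are independent cultures is not stated, so a p-value here reflects the spread among these libraries, which may be technical.

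Proteins bound for secretion or for membranes enter the ER through the SEC61 channel and fold there with the help of chaperones and of enzymes that form disulfide bonds. Proteins that fail to fold are taken back to the cytosol and degraded, a route known as ER-associated degradation (ERAD). When unfolded proteins accumulate, the sensors IRE1, ATF6 and PERK start the unfolded protein response, in which the transcription factors XBP1 and cleaved ATF6 raise chaperone and ERAD genes and PERK slows translation by phosphorylating eIF2. Bone-forming cells secrete much collagen and depend on this machinery.

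Library totals ranged from 18446443 to 20602771 counts. The labels name the mouse as organism, whereas the gene symbols follow human naming, and genes are identified here by those symbols alone. ALPL, the alkaline phosphatase for which SaOS2 is known, had only 8 to 15 counts per library, which goes against the label. SP7 and BGLAP, also of the bone lineage, were too low to test. COL1A1 (23.3 ± 0.963 to 4.96 ± 0.585 CPM), SPARC (1913 ± 162 to 681.5 ± 45.2) and RUNX2 (19.6 ± 1.73 to 9.14 ± 1.97) fell in D (SD, n = 3). SPP1, the osteopontin gene, rose at a low level (0.341 ± 0.219 to 2.38 ± 0.659 CPM; SD, n = 3). RB1 was at 35.8 ± 1.36 CPM in C and 47.8 ± 11.7 in D (SD, n = 3) and was not called (0.42 ± 0.17 on the log2 scale). Summed over 5 endothelial markers the level was 20.2 to 25.1 CPM (a gene's reads relative to the library, adjusted with TMM factors that align the bulk of genes between libraries) in C and 14.3 to 15.5 in D, and over 5 epithelial markers 79.4 to 88.8 in C and 101.4 to 134.9 in D. Of 5 hematopoietic markers, CD68, which many cell types express, was tested (−0.02 ± 0.10 on the log2 scale), and the other 4, PTPRC among them, were too low to test. None of these 15 markers was at 0 in all libraries, and their part in the results below was not tested. D replicates 2 and 3 stood apart along gene length, as described with the long and short genes below.

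All 8 regulators and sensors of the unfolded protein response were called, 5 higher and 3 lower, while 8 of 15 folding genes were lower and 0 higher. Of the 38 tested genes, 10 were higher and 14 lower in D at a Benjamini-Hochberg adjusted p under 0.05 over 12682 genes (quasi-likelihood test of edgeR). For the whole table the called share was 54.4%, with 26.8% higher in D and 27.7% lower. The 26.3% of the ER genes that were higher is near that background, and the 36.8% that were lower is above it, a difference that was not tested. All 3 D libraries lay above all 3 C libraries for 12 of the 38 and below them for 17, against 30.6% and 32.1% of all tested genes. The median log2 fold change was −0.10 for the 38 genes and −0.02 for all tested genes. Scaled by library size only, which shifts the median of all genes to −0.17, 6 were higher and 19 lower. Under that scaling, 2586 of all 12682 tested genes were higher and 4449 lower. Without C replicate 1, C replicate 2 or D replicate 1, 6 of the ER genes were also higher. Over all genes, those 3 fits had 2627 of 12850, 2752 of 12809 and 2881 of 12832 higher. In these bulk libraries, fewer cells of a kind and less RNA per cell cannot be told apart.

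**Figure D1:**
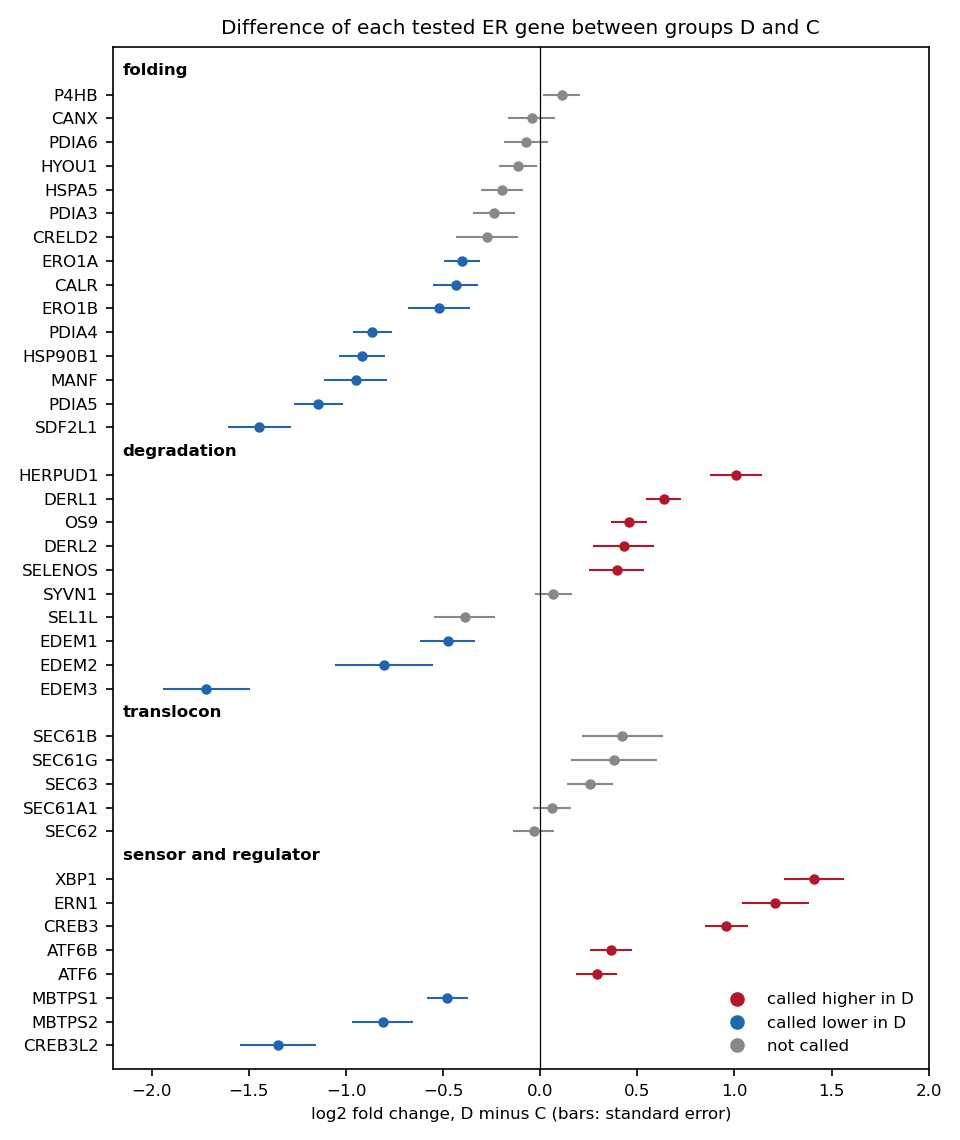
Each point is the log2 fold change of a tested gene, D minus C, from edgeR on 3 libraries per group, and the bar is its standard error. The 15 folding genes lie between −1.45 and 0.11, while the 8 sensors and regulators reach from −1.35 to 1.41 and none of them is grey (not called).

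XBP1 and ERN1, the factor and the kinase of the IRE1 branch, rose. ERN1 encodes IRE1 itself, a kinase and nuclease that splices XBP1 mRNA, and spliced XBP1 encodes the active transcription factor. XBP1 had 181, 182 and 152 CPM in C replicates 1 to 3 and 427, 386 and 556 CPM in D replicates 1 to 3. The lowest D library was 204 CPM above the highest C library. The log2 fold change of XBP1 was 1.41 ± 0.15 (SE; adjusted p = 0.00014, edgeR), or 2.66-fold. Gene counts do not separate the spliced from the unspliced form. ERN1 had 20.0, 17.2 and 18.2 CPM in C and 45.5, 50.6 and 32.4 CPM in D. D replicate 3 was the lowest D library for ERN1 and the highest for XBP1. Its log2 fold change was 1.21 ± 0.17 (adjusted p = 0.00053, edgeR).

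ATF6 and its relative ATF6B, membrane-bound factors that are cut in the Golgi when the ER is stressed, were slightly higher, and the proteases that cut them were lower. ATF6 had 99.1, 93.7 and 97.0 CPM in C and 116, 130.3 and 108 in D, and ATF6B had 65.7, 64.2 and 71.7 in C and 89.5, 91.6 and 78.5 in D. The groups did not overlap for either gene, but the gaps of 9.1 CPM for ATF6 and 6.7 for ATF6B were below the SD in D (11.25 and 7.05, n = 3). The log2 fold changes were 0.29 ± 0.11 for ATF6 (adjusted p = 0.043, edgeR) and 0.37 ± 0.11 for ATF6B (adjusted p = 0.019, edgeR). The call of ATF6 was lost without C replicate 1 (adjusted p = 0.10), C replicate 2 (0.16), C replicate 3 (0.12) or D replicate 1 (0.094), and that of ATF6B without C replicate 1 (0.079), C replicate 2 (0.093) or D replicate 1 (0.071). With library size only, neither gene was called (0.14 for ATF6 and 0.22 for ATF6B on the log2 scale).

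MBTPS1 and MBTPS2 encode S1P and S2P, the proteases that release ATF6 and the sterol regulators from the membrane. MBTPS2 had 23.4, 23.9 and 27.1 CPM in C and 14.3, 16.8 and 11.4 in D, and fell by 0.81 on the log2 scale (SE 0.16; adjusted p = 0.0026, edgeR). MBTPS1 had 255, 244 and 256 CPM in C and 188, 194 and 159 in D, and fell by 0.48 (SE 0.11; adjusted p = 0.0054, edgeR). All D libraries lay below all C libraries for both proteases.

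CREB3 and CREB3L2 belong to the same family of membrane-bound factors and went opposite ways. CREB3 had 33.9, 33.6 and 30.5 CPM in C and 63.9, 57.7 and 68.9 in D. Its libraries were tight within both groups, and its log2 fold change was 0.96 ± 0.11 (adjusted p = 0.00019, edgeR). CREB3L2, a regulator of secretory genes in cartilage and bone cells, had 516.5, 436 and 504 CPM in C and 199, 237 and 135 in D. It fell by 1.35 on the log2 scale (SE 0.19; adjusted p = 0.00055, edgeR), with D replicate 3 the lowest of the 6. CREB3L1, the close relative known as OASIS and a factor of collagen secretion, was outside the 39 genes and fell from 185 ± 11.1 to 78.1 ± 4.22 CPM (SD, n = 3; −1.24 ± 0.10).

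**Figure D2:**
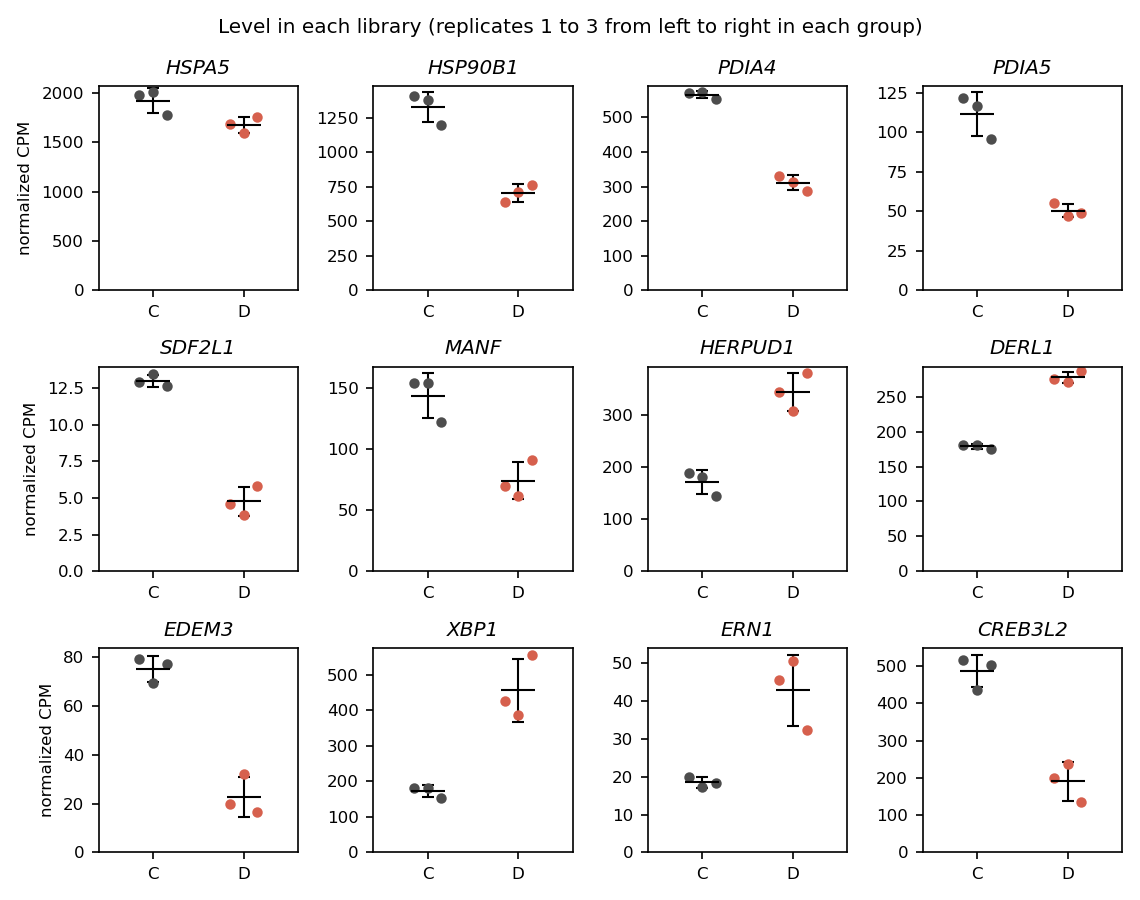
Normalized CPM of 12 ER genes in each library, with replicates 1 to 3 from left to right, the group mean as a horizontal line and the SD as a bar (n = 3). The groups do not overlap in any of the 12 panels, although HSPA5 did not pass the test, and XBP1 in D is highest in replicate 3 while ERN1 and CREB3L2 are lowest there.

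Of 15 folding genes, 8 fell and 7 were not called, against 27.7% of all tested genes that fell, and the median log2 fold change was −0.40. The number higher was 0 by edgeR, also 0 at an unadjusted p under 0.05, and 0 by DESeq2 and limma-voom. With library size only, 12 fell, as did 4449 of all 12682 tested genes. The estimate was below 0 for 14 of the 15, the exception being P4HB, and all D libraries lay below all C libraries for 11, against 32.1% of all tested genes. The summed FPKM of the 15 genes (the deposited values, scaled to gene length and library total) was 3895, 3935 and 3627 in C and 2670, 2533 and 2631 in D.

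HSPA5, also called BiP, is the central ER chaperone of the HSP70 family and keeps the sensors inactive when bound to them. It had 1975, 2007 and 1776 CPM in C and 1684, 1591 and 1752 CPM in D. The D libraries lay just below the C libraries, with 23.3 CPM between the nearest. This change, −0.20 ± 0.11 on the log2 scale, was not called (adjusted p = 0.16, edgeR), and with library size only it was −0.35 and did (adjusted p = 0.014, edgeR). HYOU1, an exchange factor for HSPA5, was likewise not called, at −0.12 ± 0.10 (adjusted p = 0.34, edgeR) and −0.27 with library size only, just past the threshold.

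HSP90B1, the ER member of the HSP90 family also known as GRP94, fell clearly. It had 1406, 1381 and 1201 CPM in C and 637, 710 and 766 CPM in D. The highest D library was 435 CPM below the lowest C library. The log2 fold change was −0.92 ± 0.12 (adjusted p = 0.00032, edgeR), a level 47.0% lower in D.

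SDF2L1, a partner of the ER DNAJ proteins that helps keep clients soluble, showed the deepest fall of the folding genes. It had 12.9, 13.5 and 12.7 CPM in C and 4.63, 3.85 and 5.85 CPM in D. These rest on 252 to 291 counts per C library and 74 to 103 per D library. Its log2 fold change was −1.45 ± 0.16 (adjusted p = 0.00016, edgeR), or 63.3% lower. MANF, a secreted ER protein that binds HSPA5, had 154.5, 154.2 and 122 CPM in C and 70.3, 61.8 and 90.8 in D. It fell by 0.95 on the log2 scale (SE 0.16; adjusted p = 0.0014, edgeR). CRELD2, another small ER protein induced in the same response, had 22.2, 24.2 and 20.0 CPM in C and 17.3, 15.3 and 22.3 in D. D replicate 3 lay within the C range, and the change of −0.28 ± 0.16 did not pass (adjusted p = 0.17, edgeR). Without D replicate 3 it was −0.43 (adjusted p = 0.011, edgeR).

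The protein disulfide isomerases, which make and rearrange disulfide bonds, split into 2 that fell and 3 that were not called. PDIA5 had 122, 117 and 96.0 CPM in C and 55.2, 47.0 and 49.3 in D, and PDIA4 had 569, 573 and 554 in C and 332, 312 and 288 in D. Both sets of libraries were far apart. The log2 fold changes were −1.14 ± 0.13 for PDIA5 (adjusted p = 0.00014, edgeR) and −0.86 ± 0.10 for PDIA4 (adjusted p = 0.00018, edgeR). P4HB, per gene length the most abundant of these 5 isomerases and a subunit of the collagen prolyl hydroxylase, was at 583 ± 17.2 CPM in C and 629.6 ± 26.8 in D (0.11 ± 0.10; adjusted p = 0.36, edgeR), and with library size only its estimate was −0.04. PDIA6 was at −0.08 ± 0.11 and PDIA3, which works with the lectin chaperones, at −0.24 ± 0.11 (adjusted p = 0.60 and 0.091, edgeR). Without D replicate 3, PDIA3 was called at −0.27 (adjusted p = 0.038, edgeR).

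ERO1A and ERO1B supply oxidizing power to these isomerases, and both fell. ERO1A had 271, 261 and 255 CPM in C and 191, 193 and 212 in D (−0.40 ± 0.10; adjusted p = 0.0070, edgeR). ERO1B, far less abundant per gene length, had 11.9, 8.64 and 9.48 CPM in C and 6.26, 7.44 and 7.15 in D (−0.52 ± 0.16; adjusted p = 0.021, edgeR). Its call was lost without C replicate 1 (−0.39) or D replicate 1 (−0.45), and after removal of the trends along gene length (−0.32).

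CALR and CANX, the lectin chaperones calreticulin and calnexin, bind sugar chains on folding glycoproteins. CALR had 2344, 2400 and 2279 CPM in C and 1786, 1541 and 1863 in D, and all its D libraries lay below its C libraries. It fell by 0.44 on the log2 scale (SE 0.11; adjusted p = 0.011, edgeR), and without C replicate 2 the change of −0.42 missed the threshold (adjusted p = 0.053, edgeR). CANX, its membrane-bound counterpart, was at 923 ± 12.9 CPM in C and 896 ± 118 in D (−0.04 ± 0.12; adjusted p = 0.77, edgeR), and removing the length trend gave a positive estimate.

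Genes of ER-associated degradation went both ways. Of 10 tested, 5 rose, 3 fell and 2 were not called, with a median log2 fold change of 0.23. Over all tested genes 26.8% rose and 27.7% fell, so the 30.0% of these genes that fell is near the background. Leaving out any library but D replicate 2 left 3 that rose, and without C replicate 1, C replicate 3 or D replicate 1 only 1 fell, EDEM3. The genes that rose were HERPUD1, DERL1, OS9, DERL2 and SELENOS, and EDEM1, EDEM2 and EDEM3 fell.

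HERPUD1, a membrane protein that organizes the degradation complex and is itself a stress-induced gene, rose most. It had 188, 181.5 and 144 CPM in C and 344, 308 and 379.8 in D. The groups were well apart, and the log2 fold change was 1.01 ± 0.13 (adjusted p = 0.00038, edgeR), or 2.01-fold. DERL1, a derlin of the export channel, had 181.0, 180.5 and 174.5 CPM in C and 275, 270.3 and 287 in D (0.64 ± 0.09; adjusted p = 0.00053, edgeR). OS9, a lectin that hands glycoproteins to the ligase complex, had 171.5, 180.0 and 168.5 CPM in C and 233, 231 and 249 in D (0.46 ± 0.09; adjusted p = 0.0034, edgeR).

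DERL2 and SELENOS rose narrowly. DERL2, the second derlin, had 33.8, 36.9 and 32.6 CPM in C and 43.1, 38.6 and 57.6 in D. SELENOS, a selenoprotein that links the derlins to the p97 ATPase, had 36.5, 35.3 and 31.1 CPM in C and 44.6, 37.7 and 52.7 in D. D replicate 2 lay above the highest C library by 1.69 CPM for DERL2 and 1.25 CPM for SELENOS, and D replicate 3 stood above the rest. The log2 fold changes were 0.43 ± 0.16 for DERL2 and 0.39 ± 0.14 for SELENOS, each with an adjusted p of 0.045 (edgeR). Both calls were lost when any library but D replicate 2 was left out, with values from 0.26 to 0.48 for DERL2 and 0.28 to 0.44 for SELENOS, and with library size only. DERL3, the third derlin, had 0 counts in 5 libraries and 1 count in D replicate 2, and was not tested. A level of 3 counts corresponds to 0.139 to 0.170 CPM in these libraries, for counting error only.

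EDEM3 had the largest log2 change of the 38 tested genes with all libraries, but without D replicate 3 its −1.53 was behind the −1.61 of SDF2L1. The EDEM proteins trim mannose from glycoproteins and so mark them for degradation. EDEM3 had 79.3, 69.2 and 77.1 CPM in C and 19.8, 32.0 and 16.6 CPM in D. The highest D library, replicate 2, was at 46.2% of the lowest C library. The log2 fold change was −1.72 ± 0.22 (adjusted p = 0.00033, edgeR), or 69.6% lower. EDEM1 had 165, 164 and 175.5 CPM in C and 122, 142 and 97.5 in D (−0.48 ± 0.14; adjusted p = 0.019, edgeR). Its call was lost without C replicate 1 (−0.50), C replicate 3 (−0.45) or D replicate 1 (−0.49). EDEM2 rested on 22, 24 and 22 counts in C and 11, 14 and 9 in D (−0.81 ± 0.25; adjusted p = 0.024, edgeR). The EDEM2 call was lost in DESeq2 and when any library but D replicate 2 was left out (−0.84 to −0.68).

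SEL1L and SYVN1 form the core of the main ERAD ubiquitin ligase, SYVN1 being the ligase HRD1 and SEL1L its partner. SEL1L had 199.6, 183 and 206 CPM in C and 145, 185 and 119 in D, so that D replicate 2 lay within the C range. Its change of −0.39 ± 0.16 did not pass (adjusted p = 0.063, edgeR), while without D replicate 2 it was −0.54 and did (adjusted p = 0.0048, edgeR). With the trend along gene length removed, SEL1L was also called, but at a smaller change of −0.185 (adjusted p = 0.042, edgeR). SYVN1 had 68.6 ± 2.66 CPM in C and 71.9 ± 3.50 in D (0.07 ± 0.10; adjusted p = 0.58, edgeR).

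The translocon genes gave no call. Of 5 genes, 0 were higher and 0 lower by edgeR, by DESeq2 and by limma-voom, and 0 had an unadjusted edgeR p under 0.05. Over all tested genes 26.8% were higher and 27.7% lower by edgeR, a difference that was not tested. SEC61A1, the channel itself, had 783, 773 and 781 CPM in C and 868, 793 and 775 in D (0.06 ± 0.10; adjusted p = 0.63, edgeR), and with library size only the estimate was −0.09. SEC61B and SEC61G, its small subunits, were at 47.6, 50.4 and 41.3 CPM and 39.4, 36.5 and 29.1 CPM in C, and at 57.4, 45.3 and 83.8 CPM and 41.4, 33.3 and 61.7 CPM in D. For both subunits D replicate 3 was the highest of the 6 libraries and D replicate 2 lay within the C range. The changes of 0.42 ± 0.21 for SEC61B and 0.38 ± 0.22 for SEC61G did not pass (adjusted p = 0.12 and 0.18, edgeR). Of the 18 alternative fits, only that without D replicate 2 called them, at 0.64 and 0.59. Over all 18 the values ran from 0.07 to 0.64 for SEC61B and from −0.02 to 0.59 for SEC61G. SEC62, which helps proteins enter after translation and also acts in removing surplus ER, was at −0.03 ± 0.11. SEC63, which recruits HSPA5 to the channel, had 82.3, 80.1 and 76.3 CPM in C and 88.8, 109 and 86.4 in D. All its D libraries lay above the C libraries, but the change of 0.25 ± 0.12 did not pass (adjusted p = 0.099, edgeR). SEC63 was called without D replicate 3 (0.33) and with the length trend removed (0.39).

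Compared per gene length, CALR stood at the head of the 39 genes in every library, and by group mean ERO1B, EDEM2 and DERL3 stood at the foot of both groups. Mean FPKM in C was 1297 ± 28.4 for CALR, 516 ± 31.8 for HSPA5 and 504 ± 40.7 for HSP90B1 (SD, n = 3). HSPA5 and HSP90B1 did not differ beyond their spread in C. In D the means were 862 ± 65.3 for CALR, 405 ± 9.97 for HSPA5, 244 ± 12.7 for P4HB, 239.8 ± 17.2 for HSP90B1 and 237 ± 38.04 for XBP1. The last 3 of these did not differ beyond their spread. By mean FPKM XBP1 was 12th of 39 in C and 5th in D, HERPUD1 17th and 10th, PDIA4 6th and 11th, and MANF 10th and 17th. ERN1 was low in both groups, at 1.79 ± 0.138 FPKM in C and 3.74 ± 0.924 in D. FPKM is relative to the library total without TMM scaling, under which genes that barely changed appear lower in D.

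**Figure D3:**
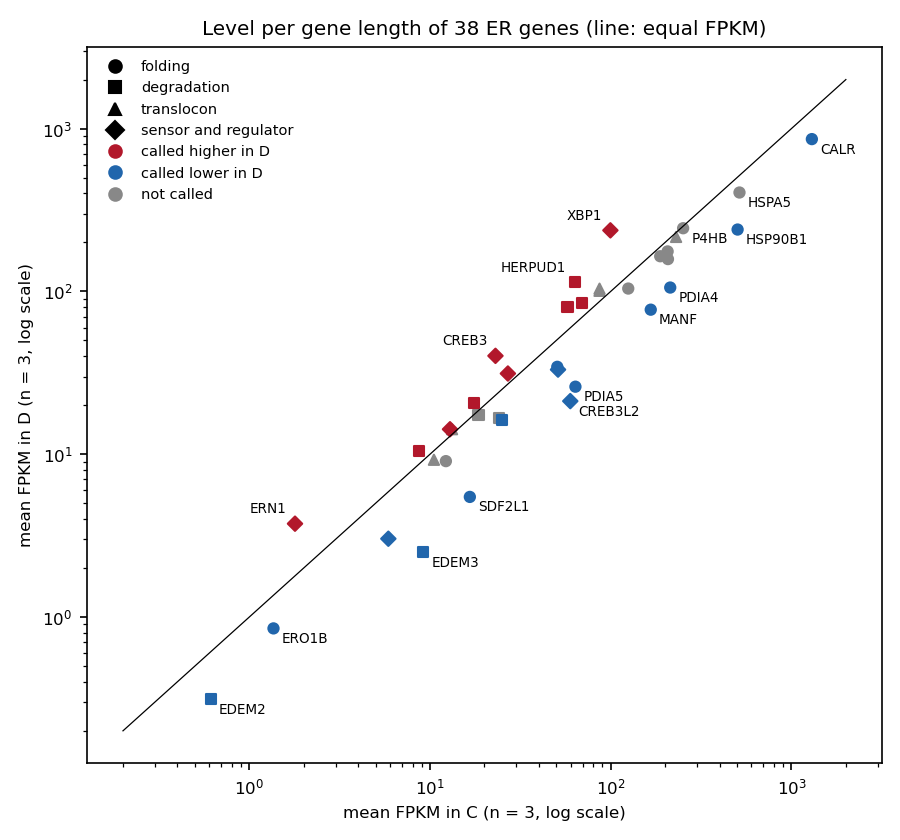
Mean FPKM in C (horizontal) and in D (vertical) of the 38 tested ER genes on log axes, with shapes for the 4 functional groups, colours for the edgeR call, and a line of equal FPKM. XBP1 lies well above the line (99.6 in C, 237 in D), and HSP90B1, PDIA4, MANF and CREB3L2 lie below it among the abundant genes.

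Ratios of genes that act together were read within each library, which removes the scaling between libraries. It does not remove the trend along gene length described below, where the genes of a pair differ in length. XBP1 (1817 bp) to ERN1 (10897 bp) was 45.8 in D replicate 2 and 103 in D replicate 3. Of 12 pairs set by function, 6 had no overlap between the groups. No such share was computed for other gene pairs. Among single tested genes, 30.6% had all D libraries above all C libraries and 32.1% had them below. HSPA5 and HSP90B1 had near equal FPKM in C, with ratios of 0.997, 1.03 and 1.05, and ratios of 1.87, 1.59 and 1.62 in D. The ratio of EDEM1 to EDEM3 was 2.56, 2.91 and 2.80 in C and 7.595, 5.47 and 7.24 in D. MBTPS1 to MBTPS2 was 9.33, 8.75 and 8.09 in C and 11.3, 9.93 and 12.0 in D, and EDEM1 to EDEM2 was 39.1, 39.4 and 45.0 in C and 52.6, 52.2 and 51.0 in D. CALR to CANX was 6.81, 7.16 and 6.77 in C and 5.38, 4.16 and 6.57 in D, and SEC62 to SEC63 was 0.764, 0.841 and 0.778 in C and 0.632, 0.591 and 0.745 in D. The exact 2-sided permutation p was 0.1 for each of these 6, the smallest that 3 against 3 allows, and 0.2 after Benjamini-Hochberg adjustment over the 12 pairs. The ratio of ATF6 to ATF6B overlapped between the groups (0.450 to 0.502 in C and 0.431 to 0.474 in D), as did those of ERO1A to ERO1B, XBP1 to ERN1, DERL1 to DERL2, and SEC61B and SEC61G to SEC61A1.

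**Figure D4:**
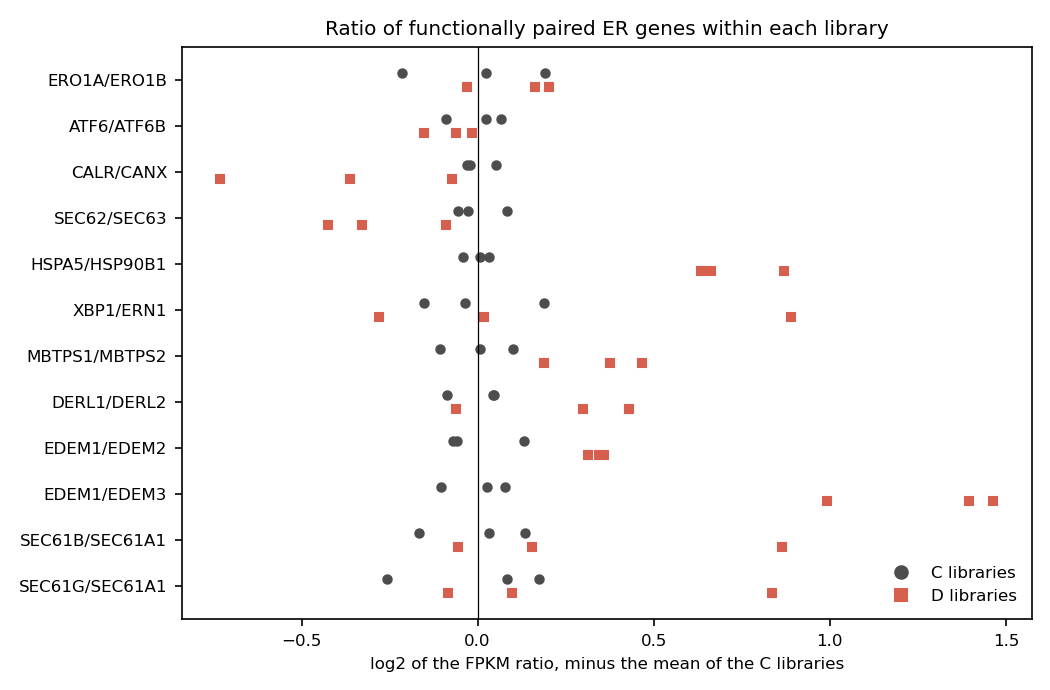
For each of 12 gene pairs, the log2 FPKM ratio in every library minus the mean of the C libraries (circles C, squares D). The D libraries of EDEM1/EDEM3 and HSPA5/HSP90B1 lie to the right of all C libraries, while XBP1/ERN1 has 1 D library, replicate 3, far from the others. The ratios are not corrected for the trends along gene length.

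The D libraries differed among themselves along gene length, and the ER genes followed this. Of the 10 tested ER genes under 2000 bp, 8 had D replicate 3 highest and D replicate 2 lowest of the D libraries, as did 77.4% of all tested genes that short. Of the 9 over 6000 bp, 7 had the reverse order, as did 61.6% of all tested genes that long. The change from C to D also went with length. Over all tested genes its median was 0.21 under 2000 bp (716 of 2072 higher, 329 lower). Over 6000 bp it was −0.20 (613 of 3606 higher, 1127 lower). Of the 10 short ER genes, 2 were higher and 5 lower, and of the 9 long ones, 2 were higher and 4 lower. The shares of all tested genes set beside the ER counts are not matched for length. Across the 38 genes, the log2 difference of D replicate 3 from D replicate 2 had a Pearson r of −0.80 and a Spearman rho of −0.74 with log2 length, a description over genes that share the same 2 libraries. SEC61B (564 bp) and SEC61G (425 bp) were 0.89 higher in D replicate 3 than in D replicate 2 on the log2 scale, and EDEM3 (8677 bp) and CREB3L2 (8570 bp) were lower there (−0.95 and −0.82). After removal of the length trends, XBP1, ERN1, EDEM3, SDF2L1 and CREB3L2 were called as before, and 11 of the 38 genes were higher and 16 lower. Under the same setting, 4169 of all 12682 tested genes were higher and 3854 lower.

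**Figure D5:**
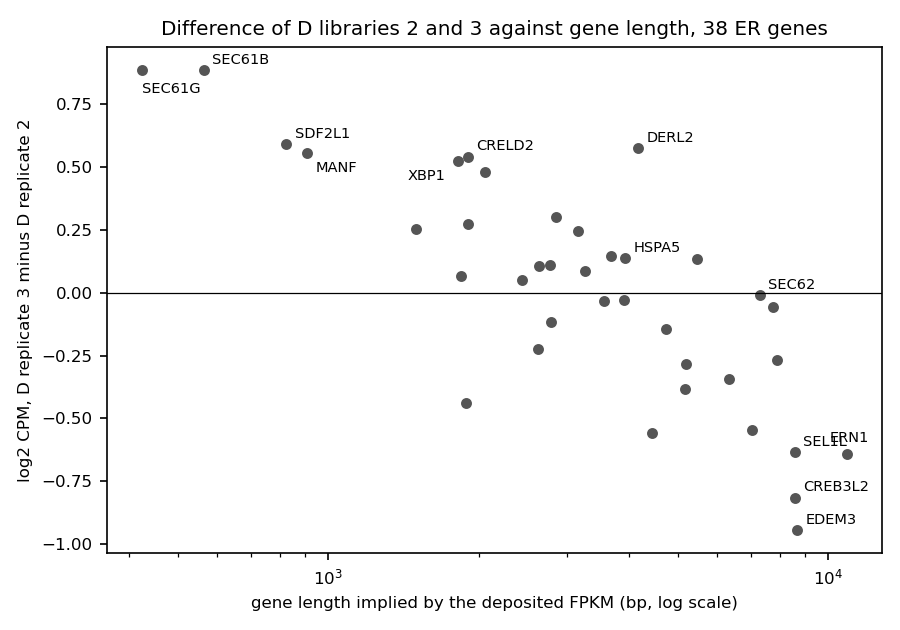
Each point is an ER gene, with its length in bp on a log axis and, vertically, its log2 CPM in D replicate 3 minus that in D replicate 2. Short genes such as SEC61B and SEC61G lie above 0 and long ones such as EDEM3 and CREB3L2 below it.

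Other genes of the same pathways were read from lists made from textbook roles, with earlier results of these data known. Their counts stand beside the 26.8% of all tested genes that rose and the 27.7% that fell, as a description only. Genes listed for the PERK and eIF2 branch mostly rose: of 17, 15 rose and 2 fell, with a median log2 fold change of 1.92. The list includes ATF4 and targets of ATF4, and whether the rises depend on PERK was not tested. PPP1R15A, a subunit of the phosphatase that reverses eIF2 phosphorylation, rose by 3.77 ± 0.13, CHAC1, a glutathione-degrading enzyme, by 3.15 ± 0.16 and TRIB3, a pseudokinase target of ATF4, by 3.09 ± 0.15. EIF2AK3, which encodes PERK itself, was 1 of the 2 that fell. It had 35.5, 34.3 and 36.3 CPM in C and 21.9, 24.1 and 20.3 in D, all D libraries below all C libraries (−0.68 ± 0.11; adjusted p = 0.0012, edgeR). The other gene that fell was VLDLR, a lipoprotein receptor.

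Of 40 other folding genes tested, 9 rose (22.5%) and 12 fell (30.0%), shares near those of all tested genes (26.8% and 27.7%), with a median of −0.02. DNAJB9, an HSPA5 partner that rises with spliced XBP1, rose from 11.8 ± 1.32 to 30.1 ± 5.30 CPM (1.36 ± 0.16), TOR1A by 0.95 ± 0.11 and DNAJC1 by 0.92 ± 0.12. FKBP7 (−1.60 ± 0.12) and FKBP14 (−1.14 ± 0.10), ER prolyl isomerases, and MOGS, the first glucosidase of sugar trimming (−1.46 ± 0.10), fell. Of 37 other degradation genes, 18 rose (48.7%, against 26.8% of all tested genes) and 9 fell (24.3%, near the 27.7% of all), with a median of 0.17. UFD1, a partner of p97 in extraction, rose from 73.8 ± 1.67 to 195 ± 29.1 CPM (1.40 ± 0.13), RNF185, an ERAD ubiquitin ligase, by 1.44 ± 0.10 and UBXN8, a p97 tether, by 1.499 ± 0.17. FAM8A1, a component of the SYVN1 complex (−1.40 ± 0.12), MAN1A1, a mannosidase (−1.13 ± 0.14), and ERLIN1 (−0.88 ± 0.11) fell.

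Of 39 other genes of translocation, signal peptidase and sugar transfer, 13 rose (33.3%, against 26.8% of all tested genes) and 6 fell (15.4%, against 27.7%), with a median of 0.04. EMC3, a core of the ER membrane complex, rose by 1.53 ± 0.13, SEC11C, a signal peptidase subunit, by 1.13 ± 0.21 and EMC10 by 0.79 ± 0.14. SSR1 of the translocon-associated complex (−0.73 ± 0.10) and the oligosaccharyltransferase genes STT3B (−0.70 ± 0.10) and RPN1 (−0.55 ± 0.10) fell. A mixed list of 20 tested genes held partners of IRE1, relatives of CREB3 and others, DNAJB12 and the NFY genes among the others. Of these 20, 6 rose (30.0%, near the 26.8% of all tested genes) and 9 fell (45.0%, against 27.7%), with a median of −0.16. DNAJB12 (0.995 ± 0.11), NFYC (0.79 ± 0.11) and BAX (0.60 ± 0.13) were among the rises. CREB3L1, WFS1, an ER protein lost in Wolfram syndrome (−0.92 ± 0.12), and the kinase gene MAP3K5 (−0.76 ± 0.19) were among the falls. Of 7 tested receptors that deliver ER to autophagy, 5 rose and 2 were not called (median 0.41), RTN3 by 0.92 ± 0.10, CCPG1 by 0.71 ± 0.17 and ATL3 by 0.49 ± 0.10. The 2 others were RETREG3 (−0.15 ± 0.11) and TEX264 (0.14 ± 0.14).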

How the data were processed

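The deposited gene counts, whole numbers per symbol without normalization, and the deposited FPKM values were used for 3 C and 3 D libraries. Each FPKM value was the count divided by the library total and by 1 length per gene (17144 of 17144 genes, relative tolerance 0.001), which gave the gene lengths. The submitters' processing notes name GRCm38 and mm10, whereas the symbols are human. The aligner and counter, and whether strand was used, were not given in the sources used here. Overlapping or antisense genes may therefore share reads. No sequence or coordinate is printed.

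The count test was that of edgeR 4.0.16 under R 4.3.3 (filterByExpr retaining 12682 genes with 99.952% of all counts, TMM factors, quasi-likelihood F test, 2-sided, group only, Benjamini-Hochberg adjustment over all tested genes, call under 0.05). SE is the log2 fold change divided by the square root of F. The test was tried on simulated data. Alternatives were DESeq2 1.42.0, limma-voom, limma-trend on log2(FPKM + pseudocount of 1 or 0.1) (limma 3.58.1; FPKM above 1 in 3 libraries, or no filter), other scalings and count filters, a lowess removal of length trends (span 0.4), a replicate block and each library left out. The 39 genes and all lists were chosen with earlier results of these data known. Values were given per library for the 8 largest called changes in each direction and for set genes such as HSPA5, and for other lists up to 3 called genes per direction whose average log2 CPM reached 3. No pair of libraries within a group agreed within sampling noise (chi-square per degree of freedom 6.21 to 90.49).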

Additional observations from a re-analysis of the deposited data

How the results depend on the processing

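Of the 24 ER genes called, 15 kept their call and direction under all 18 alternatives (XBP1, ERN1, CREB3, CREB3L2, MBTPS1, MBTPS2, HERPUD1, DERL1, OS9, EDEM3, SDF2L1, PDIA4, PDIA5, HSP90B1 and MANF), and 9 lost it under at least 1. Of the 14 not called, 6 were never called (CANX, P4HB, PDIA6, SYVN1, SEC61A1 and SEC62). No called value changed sign. Genes higher in D numbered 10, and 6 with library size only, with the replicate block and with each of the 3 limma-trend fits on FPKM, and 6 to 12 when a library was left out, while genes lower numbered 14, 19 with library size only and 18 to 19 by limma-trend on FPKM. Folding genes lower numbered 8, 5 with the replicate block, 12 with library size only or FPKM, and 7 to 10 without a library. Of the degradation genes, 5 were higher, 3 with upper quartile factors, library size only, the replicate block or FPKM, and 3 to 5 without a library, while 3 were lower, and 1 to 4 without a library. Of the translocon genes, 0 were higher, 1 with length trends removed and 0 to 2 without a library. Of the sensors and regulators, 5 were higher, 3 with library size only, the replicate block or FPKM, and 3 to 5 without a library. Over all genes, 3393 were higher, and 2213 and 2209 by limma-trend with a pseudocount of 1 and 0.1 and the FPKM filter. With library size only 2586 were higher, with the replicate block 2694, and without a library 2627 to 3888. Genes lower over all numbered 3509, 4449 with library size only, 2977 with the replicate block and 2780 to 3879 without a library. The filtered limma-trend fits had 3908 and 3877 lower, and the unfiltered fit had 2687 higher and 4447 lower. Deviations from the group mean correlated at 0.01, −0.40 and −0.37 between same-numbered libraries of C and D. The value was 0.42 between C replicate 2 and D replicate 3, and 0.35 between C replicate 3 and D replicate 2. The slopes along log2 gene length had the same signs (C replicates 2 and 3: −0.05 and 0.05, D replicates 2 and 3: 0.17 and −0.18). These correlations therefore cannot decide whether the numbers pair the libraries, and the main fit assumed no pairing. With the replicate block, 6 ER genes were higher and 10 lower, and the calls of ATF6, ATF6B, CALR, DERL2, EDEM2, ERO1A, ERO1B and SELENOS were lost. The ratio of XBP1 to ERN1, 0.21 higher in D on the log2 scale, ranged from −0.13 (without D replicate 3) to 0.45 when a library was left out. For EDEM2, at 9 to 24 counts per library, depth limits the precision.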
